A study of Mus musculus with 40 samples.

Results

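The 10 genes C1qa, C1qb, C1qc, Gas6, Pros1, Mfge8, Mertk, Axl, Tyro3 and Megf10 were followed through every group of an RNA-seq series of mouse mammary tumours. They were chosen by name, with earlier results of these data known, as genes by which phagocytes tag, bridge and engulf dying cells (efferocytosis). They make up 10 of 43346 gene identifiers measured, of which 21461 were nuclear protein-coding genes. C1q is a secreted opsonin built from A, B and C chains, made mainly by tissue macrophages. It starts the classical complement pathway and also binds dying cells and debris. Gas6 and Pros1 (protein S) bridge phosphatidylserine on a dying cell to Tyro3, Axl and Mertk, the receptor tyrosine kinases known as TAM receptors, and Mfge8 bridges it to integrins. In the mammary gland Mfge8, or lactadherin, is also a protein of the milk fat globule, and Mertk takes part in clearing dead epithelium after weaning. Megf10 is an engulfment receptor that binds C1q and is best known in astrocytes.

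All tumours arose spontaneously in MMTV-Wnt1 mice, in which the mouse mammary tumour virus promoter drives Wnt1. The groups were p53-null tumours after doxorubicin (6 tumours from 5 mice), untreated p53-null tumours (6 from 4), p21-null tumours after doxorubicin (10 from 9), untreated p21-null tumours (6 from 5), wild-type tumours after doxorubicin (6 from 5) and untreated wild-type tumours (6 from 6). Wild-type here means intact Trp53 (p53) and Cdkn1a (p21). Doxorubicin, an anthracycline that breaks DNA, was injected into the peritoneum at 4 mg/kg on each of 5 days, and tumours were taken 24 h after the last dose. The labels give neither the age of the mice nor the part of Trp53 or Cdkn1a that the null alleles lack. For wild-type tumours libraries came from the TruSeq Stranded Total RNA kit, and for all null tumours from the TruSeq RNA v2 kit. A level in null tumours set against one in wild-type tumours would therefore mix kit and genotype, which cannot be told apart, and no such test was made. Nothing in the labels says that mice of a group were independent in batch or day. The p-values therefore only set a difference against the spread between these mice within groups, estimated over all 6 groups together.

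Nuclear protein-coding genes held 79.6 to 86.27% of the deposited TPM in libraries of the null genotypes and 7.72 to 10.73% in wild-type libraries. Every level below is therefore a TPM rescaled so that these genes sum to 1000000 in a tumour, and tumours of 1 mouse were averaged on the log2 scale. TPM keep no sequencing depth, so the depth is unknown and no counting interval is given. Cdkn1a, the p21 gene that p53 induces, averaged 58.9 TPM after doxorubicin and 43.8 TPM untreated in p53-null tumours, 276 and 59.8 TPM in p21-null tumours, and 210 and 35.3 TPM in wild-type tumours. The Cdkn1a log2 difference was 0.37 ± 0.39 (SE, limma adjusted p = 0.718) in p53-null, 2.24 ± 0.32 (1.06e-05) in p21-null and 2.66 ± 0.35 (4.61e-06) in wild-type tumours. Trp53 averaged 63.6 TPM after doxorubicin and 73.8 TPM untreated in tumours labelled p53-null, so the level of a gene does not by itself check its alleles. Trp53 was lower in p53-null than in p21-null tumours, by log2 -0.67 ± 0.13 treated (adjusted p = 0.000758) and -0.67 ± 0.16 untreated (0.0233). All 7 luminal and 7 basal epithelial markers were above 0 in each of the 34 mice. Treated p53-null mouse m2769 stood apart, with the lowest summed level of 21 macrophage markers among all mice (824.5 TPM).

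After doxorubicin the C1q subunits and the ligands Gas6 and Pros1 rose in p21-null and in wild-type tumours, and none of them passed the test in p53-null tumours. In p53-null tumours 0 of the 10 genes rose and 1, Megf10, fell, where 1.17% of all 14928 genes tested rose and 0.456% fell (limma, Benjamini-Hochberg adjusted p under 0.05). Megf10 met the filter of 1 TPM in at least 4 mice only through its level in untreated p53-null mice, so its fall is a description. In p21-null tumours 5 of 10 rose and none fell, against 5.00% of all genes that rose. In wild-type tumours the same 5 of 10 rose and none fell, against 3.73% of all genes that rose (557 genes, with 199 that fell, or 378 and 358 under median-of-ratios scaling). These counts are descriptions, since the genes were chosen with earlier results known and the C1q chains varied together. The median log2 difference over the 10 genes was 0.108 in p53-null, 0.618 in p21-null and 0.746 in wild-type tumours, and over all genes it was 0.052, -0.086 and 0.037 in these genotypes. Every treated mouse lay above every untreated mouse for 0 of the 10 genes in p53-null tumours, where 2.32% of all genes did so. This held for 3 of the 10 in p21-null tumours (all genes: 3.04%) and for 7 of the 10 in wild-type tumours (all genes: 4.52%).

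**Figure D1:**
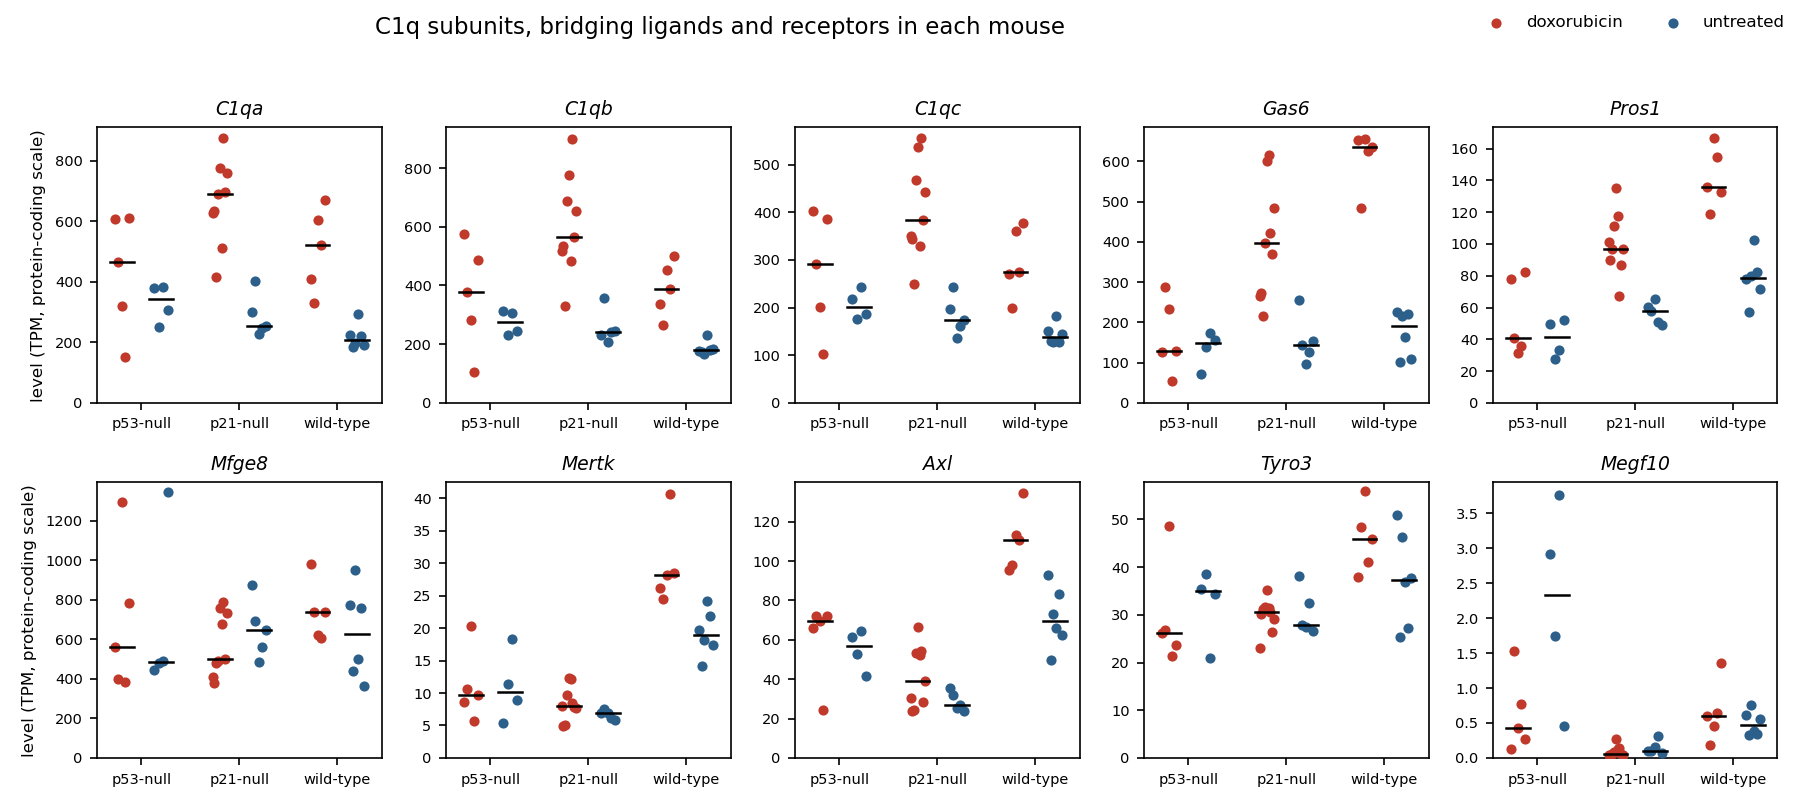
Level of each of the 10 genes (vertical axis from 0, TPM on the protein-coding scale) in each mouse (1 point), by genotype, with doxorubicin in red left of untreated in blue and a bar at the median. In p21-null and wild-type tumours the red points of C1qa, C1qb, C1qc, Gas6 and Pros1 sit above the untreated mean in every mouse, while in p53-null tumours red and blue points of these genes overlap.

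C1qa, C1qb and C1qc encode the 3 chains of C1q and lie side by side on mouse chromosome 4 (GRCm38), with C1qa at 136895917 to 136898803, C1qc at 136889804 to 136893065 and C1qb at 136880129 to 136886187, all on the minus strand. In p53-null tumours C1qa stood at 606, 464, 319, 150.3 and 612 TPM in the 5 treated mice, against 381, 251, 382 and 305 TPM in the 4 untreated mice. Treated p53-null mice were thus both the highest and the lowest of the genotype. The log2 difference was 0.24 ± 0.28 (SE, adjusted p = 0.761) for C1qa, 0.22 ± 0.30 (adjusted p = 0.798) for C1qb and 0.28 ± 0.27 (adjusted p = 0.693) for C1qc. Without m2769, the treated p53-null mouse low in macrophage markers, the differences were 0.57, 0.61 and 0.60 and still did not pass.

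In p21-null tumours C1qa ranged from 417 to 874 TPM with a median of 689 TPM in the 9 treated mice, against 302, 403, 227, 249 and 254 TPM in the 5 untreated mice. The groups did not overlap, and all 9 treated mice lay above the untreated mean. The rise was 1.21 ± 0.23 for C1qa (adjusted p = 0.000671), 1.204 ± 0.25 for C1qb (adjusted p = 0.00186) and 1.14 ± 0.23 for C1qc (adjusted p = 0.00097), which is 2.32-, 2.30- and 2.20-fold on the scale of the fit. C1qc did not overlap between the groups, with 249 to 555 TPM treated and 137 to 243 TPM untreated. C1qb overlapped in 1 pair of mice, the lowest treated p21-null mouse at 328 TPM and the highest untreated p21-null mouse at 359 TPM.

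In wild-type tumours C1qa stood at 411, 331, 605, 521 and 672 TPM in the 5 treated mice and ranged from 183 to 295 TPM with a median of 208 TPM in the 6 untreated mice. All 3 chains separated the groups completely. The rise was 1.19 ± 0.25 for C1qa (adjusted p = 0.00334), 1.04 ± 0.28 for C1qb (adjusted p = 0.0218) and 1.01 ± 0.25 for C1qc (adjusted p = 0.0111). The calls of C1qb (adjusted p = 0.117) and C1qc (adjusted p = 0.0741) ended when TPM were taken as deposited, and that of C1qb also without treated wild-type mouse m1127 (adjusted p = 0.0637) or m1475 (adjusted p = 0.0721).

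The chains kept close to a fixed proportion while their sum varied. The sum of the 3 ranged from 358 TPM in treated p53-null m2769 to 2329 TPM in a treated p21-null mouse. Over all 34 mice C1qa was between 0.973 and 1.43 times C1qb, and between 1.34 and 1.89 times C1qc. C1qa exceeded C1qb and C1qb exceeded C1qc in 32 of 34 mice, and the other 2 mice were treated p21-null mice, of which 7 of 9 kept the order. Deviations from the group means correlated between C1qa and C1qb with r = 0.963 over 34 mice, as a description, since the genes share libraries and cells.

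C1q genes moved with macrophage markers. Of 21 macrophage markers 1 rose in p53-null, 15 in p21-null and 9 in wild-type tumours after doxorubicin, and none fell. Over all genes 1.17%, 5.00% and 3.73% rose. The median log2 difference of the 21 was 0.361, 1.061 and 0.925 in these genotypes. Their summed level was 824.5 to 3505 TPM in treated and 1376 to 1870 TPM in untreated p53-null mice. In p21-null mice it was 1775 to 5114 TPM treated and 1204 to 1953 TPM untreated, and in wild-type mice 2127 to 3724 TPM treated and 1309 to 1939 TPM untreated. The rises included Cd68, a lysosomal membrane protein of macrophages (1.28 ± 0.22 in p21-null and 1.37 ± 0.24 in wild-type tumours), and Ms4a7 (1.60 ± 0.27 and 1.30 ± 0.29). The marker that rose in p53-null tumours was Siglec1, a sialic acid receptor of macrophages (1.51 ± 0.36, adjusted p = 0.021). In bulk tumours a change in the number of macrophages and a change in RNA per macrophage cannot be told apart.

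Gas6, a vitamin K-dependent ligand of all 3 TAM receptors (chromosome 8, 13465374 to 13494490, minus strand, GRCm38), had the largest estimated rise of the 10 genes in both genotypes in which it passed. In p53-null tumours it stood at 126, 289, 233, 54.1 and 128 TPM in the 5 treated mice, against 72.0, 139, 173 and 157 TPM in the 4 untreated mice. Treated p53-null mice were again spread on both sides of the untreated mice, with 2 of 5 above the untreated mean (0.15 ± 0.37, adjusted p = 0.9). In p21-null tumours Gas6 ranged from 215 to 616 TPM with a median of 397 TPM in the 9 treated mice, against 255, 144, 97.4, 127 and 154 TPM in the 5 untreated mice. All 9 treated mice exceeded the untreated mean, and the groups overlapped through the untreated mouse at 255 TPM (1.36 ± 0.30, adjusted p = 0.00332).

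In wild-type tumours Gas6 stood at 653, 485, 654, 627 and 637 TPM in the 5 treated mice and at 102 to 226 TPM with a median of 189.84 TPM in the 6 untreated mice. Even the lowest treated mouse lay well above the highest untreated mouse, and the other 4 treated mice lay close together. The log2 difference was 1.88 ± 0.33 (adjusted p = 0.000382), a 3.69-fold difference, and the call held in all 9 alternative settings and without each of the 34 mice (1.75 to 1.97). Summed fibroblast markers were 1735 to 3120 TPM in treated and 1627 to 2749 TPM in untreated wild-type mice, and 0 of 9 fibroblast markers passed in any genotype. Summed basal epithelial markers were 3158 to 4803 TPM in treated and 2385 to 3612 TPM in untreated wild-type mice, with 0 of 7 past the test. Their part in the Gas6 result was not tested. The 3' end of Gas6 overlaps Tmem255b on the other strand, which had a median of 0.66 and at most 2.07 deposited TPM over all libraries. Deposited TPM are not on the scale of the Gas6 levels above, and rescaling raises them far more in wild-type than in null libraries. The sources used here do not say whether the counting used strand.

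Pros1 encodes protein S, a plasma anticoagulant that also activates Tyro3 and Mertk (chromosome 16, 62854307 to 62929346, plus strand). Its estimated rise was smaller than that of Gas6 in both genotypes in which it passed. In p53-null tumours it stood at 77.65, 40.9, 31.2, 35.7 and 82.4 TPM in treated and at 49.9, 27.7, 33.3 and 51.9 TPM in untreated mice, with overlapping groups (0.32 ± 0.23, adjusted p = 0.555). In p21-null tumours it ranged from 67.0 to 135 TPM with a median of 97.1 TPM in the 9 treated mice, against 49.1 to 65.6 TPM in the 5 untreated mice. These groups did not overlap (0.79 ± 0.19, adjusted p = 0.00606). In wild-type tumours it stood at 136, 119, 166, 155 and 132 TPM in treated mice and at 57.4 to 103 TPM with a median of 78.8 TPM in untreated mice. These groups did not overlap either (0.85 ± 0.21, adjusted p = 0.0108), and the call ended when TPM were taken as deposited (adjusted p = 0.107). Gas6 exceeded Pros1 in 34 of 34 mice.

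Sequences before the RefSeq transcription start are given for C1qb, Gas6 and Pros1, which rose together in p21-null and wild-type tumours. RefSeq promoter windows (GRCm38.p6) were matched for 8 of the 10 genes. Each run below holds the 250 bases before the start, 5′ to 3′ on the strand of the gene, and capitals mark a match to any of 4 motifs searched on both strands: the PU.1 core GAGGAA, the GAS element TTCNNNGAA of STAT factors, the ISRE core GAAANNGAA of interferon response factors, and the p53 half-site consensus. PU.1 is the myeloid factor encoded by Spi1. The windows lie at chr4:136886201-136886450 (minus strand) for C1qb, chr8:13494536-13494785 (minus strand) for Gas6 and chr16:62854057-62854306 (plus strand) for Pros1.
C1qb: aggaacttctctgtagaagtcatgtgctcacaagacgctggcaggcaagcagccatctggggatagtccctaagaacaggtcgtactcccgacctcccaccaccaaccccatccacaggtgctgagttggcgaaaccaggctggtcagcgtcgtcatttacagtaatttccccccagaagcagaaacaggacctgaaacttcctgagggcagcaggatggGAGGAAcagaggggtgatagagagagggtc
Gas6: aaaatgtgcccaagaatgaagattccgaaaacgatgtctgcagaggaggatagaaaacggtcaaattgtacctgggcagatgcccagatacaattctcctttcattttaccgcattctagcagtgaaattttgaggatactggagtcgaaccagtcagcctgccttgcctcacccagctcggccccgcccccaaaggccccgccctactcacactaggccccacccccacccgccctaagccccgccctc
Pros1: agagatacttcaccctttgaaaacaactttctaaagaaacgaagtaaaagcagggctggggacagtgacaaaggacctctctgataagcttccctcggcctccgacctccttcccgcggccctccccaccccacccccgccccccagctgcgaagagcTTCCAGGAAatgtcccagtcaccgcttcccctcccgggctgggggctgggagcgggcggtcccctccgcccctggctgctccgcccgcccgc
The C1qb window held 1 PU.1 core, starting at -30 from the transcription start, and the C1qc window held 1 at -193. Windows of Mfge8 and Axl, which did not rise past the test, also held 1 PU.1 core each, and 23.3% of all 32841 windows hold that motif. Pros1 held 1 GAS element at -92, a motif in 7.02% of windows. Gas6 held none of the 4 motifs in this window. None of the 8 windows held the ISRE core, which 7.13% of windows hold. The p53 half-site consensus, also in 7.13% of windows, occurred among the 8 only in that of Mertk, at -178. For Gas6 and Mertk no GENCODE transcript held the bases checked just after the RefSeq start, so these windows rest on RefSeq alone. A match of letters is a description and no binding site.

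Mfge8, the milk fat globule protein that bridges dying cells to integrins, was the most abundant of the 10 genes by group median in 5 of the 6 groups, and did not pass in any genotype. Its group medians lay between 486 and 738 TPM. It stood at 564, 401, 1294, 386 and 784 TPM in treated and at 446, 480.2, 493 and 1346 TPM in untreated p53-null mice, with 1 mouse far above the others in each group. In p21-null tumours it ranged from 381 to 790 TPM with a median of 499 TPM treated, against 485 to 875 TPM with a median of 647 TPM untreated. In wild-type tumours it stood at 980.1, 738, 620, 608 and 740.1 TPM treated and at 364 to 952 TPM with a median of 628 TPM untreated. The groups overlapped in each genotype, and the log2 differences were 0.01 ± 0.33 in p53-null, -0.19 ± 0.27 in p21-null and 0.29 ± 0.30 in wild-type tumours (adjusted p of at least 0.677). In treated p21-null tumours C1qa (median 689 TPM) and C1qb (565 TPM) exceeded it.

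The TAM receptors did not pass the test in any genotype. Axl, the receptor with the highest affinity for Gas6, stood at 66.0, 72.3, 69.6, 24.6 and 72.1 TPM in treated and at 61.4, 52.7, 64.7 and 41.4 TPM in untreated p53-null mice. It overlapped there (0.07 ± 0.28), with treated m2769 the lowest of the 9 mice. In p21-null tumours Axl ranged from 23.6 to 66.5 TPM with a median of 39.1 TPM treated and from 23.6 to 35.5 TPM untreated (0.44 ± 0.23, adjusted p = 0.236). Treated p21-null mice fell on both sides, 6 of 9 above the untreated mean. In wild-type tumours Axl stood at 95.3, 98.2, 113, 110.6 and 134 TPM treated, against 49.6 to 92.9 TPM with a median of 69.7 TPM untreated. The wild-type groups did not overlap, and the difference of 0.64 ± 0.25 did not pass (adjusted p = 0.141).

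Mertk, the TAM receptor of resting tissue macrophages, was the least abundant of the 3 in every group. It stood at 8.63, 10.6, 20.3, 5.68 and 9.76 TPM in treated and at 5.41, 11.3, 18.3 and 8.85 TPM in untreated p53-null mice (0.01 ± 0.27). In p21-null tumours it ranged from 4.98 to 12.3 TPM treated and from 5.80 to 7.52 TPM untreated (0.26 ± 0.22), so that the groups overlapped in both null genotypes. In wild-type tumours it stood at 26.1, 24.5, 28.2, 40.7 and 28.5 TPM treated, against 14.1 to 24.2 TPM with a median of 19.0 TPM untreated. These did not overlap, and the difference was 0.59 ± 0.24 (adjusted p = 0.165). Fitting only the wild-type mice, Axl (adjusted p = 0.0249) and Mertk (adjusted p = 0.0364) passed in wild-type tumours.

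Tyro3, the third TAM receptor, differed by -0.16 ± 0.20 in p53-null, -0.03 ± 0.16 in p21-null and 0.32 ± 0.18 in wild-type tumours (adjusted p of at least 0.361). Its range was 21.5 to 48.7 TPM treated and 20.98 to 38.6 TPM untreated in p53-null mice, 23.1 to 35.2 TPM and 26.7 to 38.2 TPM in p21-null mice, and 37.9 to 56.0 TPM and 25.3 to 50.9 TPM in wild-type mice. The groups overlapped in all 3 genotypes. Tyro3 exceeded Mertk in 34 of 34 mice and Axl exceeded Tyro3 in 28 of 34. The exceptions were p21-null: Axl exceeded Tyro3 in 7 of 9 treated and 1 of 5 untreated p21-null mice, where Axl made up a median of 51.6% of the summed TAM receptor level treated and 42.6% untreated.

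Gas6 was also set against the summed level of the 3 TAM receptors, which itself varied between groups. The median of that sum was 105.6 TPM treated and 102.5 TPM untreated in p53-null mice. It was 75.7 and 65.3 TPM in p21-null mice, and 192.3 and 129.7 TPM in wild-type mice. Gas6 was 1.25 times that sum at the median of treated p53-null mice, against 1.51 times in untreated p53-null mice. It was 4.66 times the sum in treated p21-null mice (range 3.55 to 6.43), against 2.15 times in untreated p21-null mice (1.62 to 3.16). It was 3.26 times the sum in treated wild-type mice (2.84 to 4.09), against 1.34 times in untreated wild-type mice (0.920 to 1.66). The groups overlapped in p53-null tumours and did not overlap in the other 2 genotypes. Pros1 was a median of 0.691 times the TAM sum treated and 0.404 times untreated in p53-null mice, 1.27 and 0.866 times in p21-null mice, and 0.804 and 0.616 times in wild-type mice. These proportions compare transcript levels per length, in TPM, and are given without a test.

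**Figure D2:**
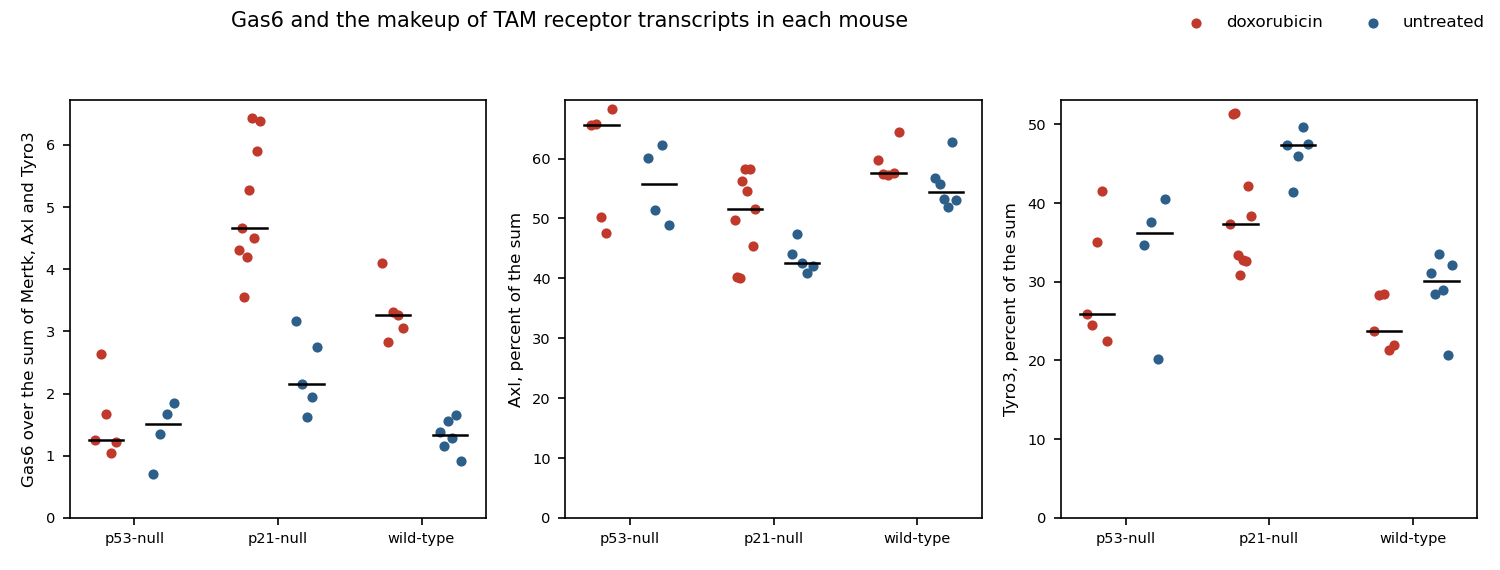
Proportion of Gas6 to the summed level of Mertk, Axl and Tyro3 (left), and the percent of that sum held by Axl (middle) and Tyro3 (right), in each mouse (1 point) by genotype, doxorubicin in red left of untreated in blue, with a bar at the median and axes from 0. The Gas6 proportion separates treated from untreated mice in p21-null (medians 4.66 and 2.15) and wild-type tumours (3.26 and 1.34), and not in p53-null tumours (1.25 and 1.51).

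Megf10 was near the lower limit of measurement, with a median of at most 2.33 TPM in any group. It reached 1 TPM in untreated p53-null m881, m1556 and m2119, treated p53-null m2551 and treated wild-type m1475. Without the untreated p53-null mice it would have missed the filter of 1 TPM in at least 4 mice. Every call of Megf10, in any comparison, is therefore a description. In p53-null tumours it stood at 0.121, 1.53, 0.433, 0.779 and 0.278 TPM in treated and at 2.92, 1.74, 3.76 and 0.455 TPM in untreated mice. All 5 treated mice lay below the untreated mean, the groups overlapped, and the fall was -0.91 ± 0.23 (adjusted p = 0.0299). The call ended without any of m2119 (adjusted p = 0.179), m881 (0.171), m2237 (0.123) or m2771 (0.0917), in the fit of only the p53-null mice (0.596) and with tumours as separate samples (0.284). In p21-null tumours Megf10 was at most 0.268 TPM treated and 0.318 TPM untreated, and in wild-type tumours at most 1.35 TPM treated and 0.759 TPM untreated, with no call.

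Whether the response differed between genotypes was tested as the difference of 2 responses in the same fit, and none of the 10 genes passed in any of the 3 comparisons. In the comparisons with wild-type tumours the kit differed as well. A kit effect cancels there only if it is equal in treated and untreated tumours, so kit and genotype cannot be told apart. For p53-null minus wild-type 0 of 10 passed, where 0.744% of all genes did (111 genes, and 1657 at an unadjusted p under 0.05, among them 3 of the 10). For p53-null minus p21-null 0 of 10 passed, where 0.690% of all genes did (103 genes, and 2090 at an unadjusted p under 0.05, among them 5 of the 10). For p21-null minus wild-type 0 of 10 passed, where 0.0804% of all genes did (12 genes, and 1334 at an unadjusted p under 0.05, among them 0 of the 10). The Gas6 response was lower by 1.73 in p53-null than in wild-type tumours (-1.73 ± 0.49 on the log2 scale, adjusted p = 0.11), and passed without untreated p53-null m881 (adjusted p = 0.0487) or treated p53-null m2551 (adjusted p = 0.0356). The C1qa response differed by -0.98 ± 0.37 between p53-null and p21-null tumours (adjusted p = 0.246), with an interval of 2 SE from -1.71 to -0.24. Between p21-null and wild-type tumours it differed by 0.03 ± 0.35, with an interval of 2 SE from -0.66 to 0.71, which leaves room for a sizeable difference in either direction. Megf10 passed for p53-null minus wild-type without m2493 (adjusted p = 0.00474) or m2551 (adjusted p = 0.0402), and for p53-null minus p21-null without m2493 (adjusted p = 0.0137). With all mice, a difference in response between genotypes was therefore tested and not shown for these genes. Passing in p21-null and wild-type tumours but not in p53-null tumours does not stand in for that test.

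**Figure D3:**
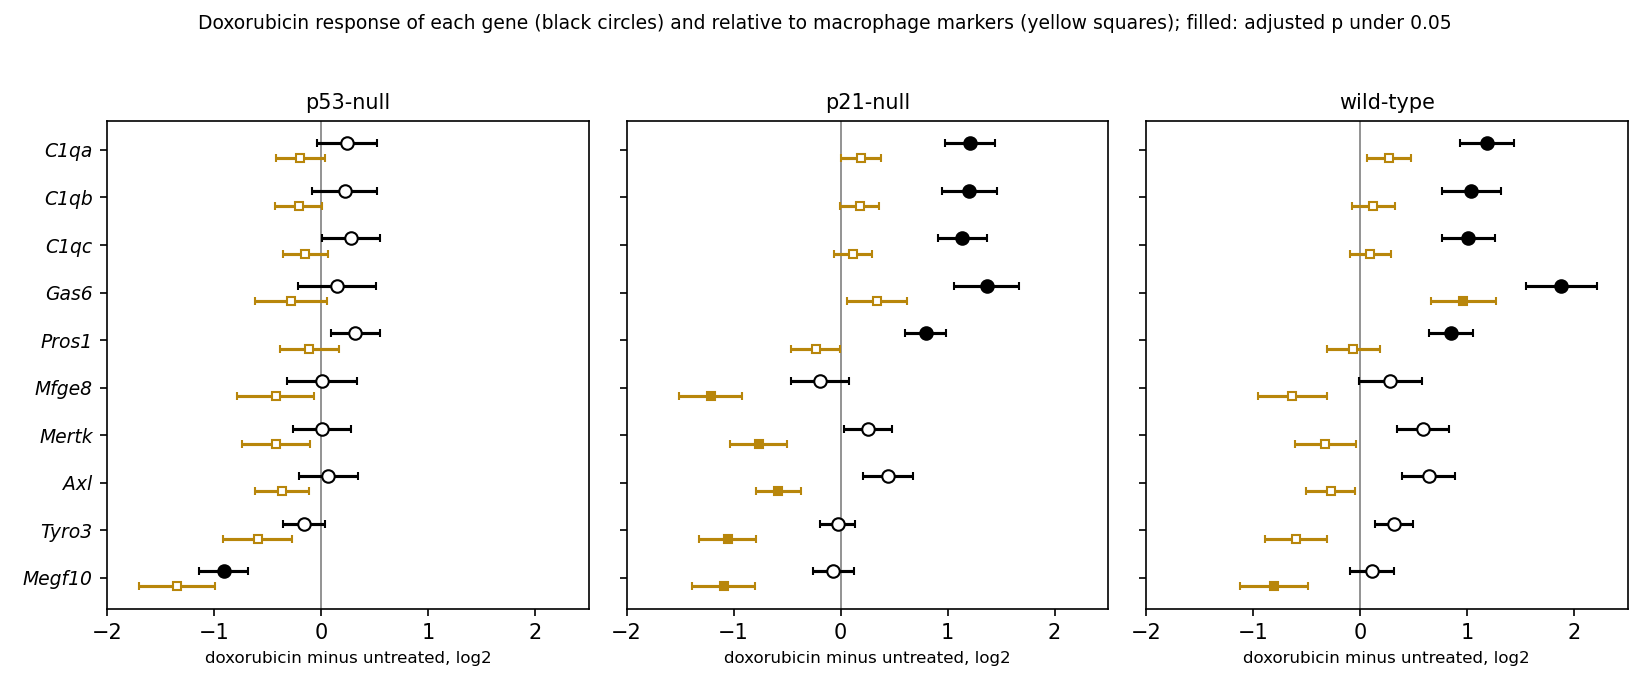
Log2 difference, doxorubicin minus untreated (horizontal axis), of each of the 10 genes in p53-null, p21-null and wild-type tumours, with bars of 1 SE. Black circles are on the protein-coding scale and yellow squares relative to the mean of 21 macrophage markers in the same mouse, filled where the adjusted p was under 0.05, and the C1q circles lie between 1.01 and 1.21 in p21-null and wild-type tumours while their squares lie between 0.10 and 0.27.

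p53-null and p21-null libraries were made with the same kit, so their levels were compared directly. Among untreated tumours 1 of 10 passed, Megf10, which was higher in p53-null tumours (1.36 ± 0.23, adjusted p = 0.000952; 2.22 ± 1.44 TPM in p53-null and 0.151 ± 0.098 TPM in p21-null mice, SD, n = 4 and 5), where 1.77% of all genes passed in either direction. Its call ended in the fit of only these mice (adjusted p = 0.0875). Megf10 met the filter only through its level in untreated p53-null mice, so this call is a description. Axl averaged 55.0 ± 10.4 TPM in untreated p53-null and 28.6 ± 4.88 TPM in untreated p21-null mice. The groups did not overlap, and the difference of 0.92 ± 0.28 did not pass (adjusted p = 0.0803), although it did under median-of-ratios scaling (adjusted p = 0.0457), in the fit of only these mice (0.0498) and without treated m2769 (0.0317). C1qa, C1qb, C1qc and Gas6 differed by between -0.20 and 0.21 (adjusted p of at least 0.77).

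Among doxorubicin-treated tumours 6 of 10 passed, 5 lower and 1, Megf10, higher in p53-null tumours. Over all genes 25.9% passed in either direction (2991 higher and 869 lower in p53-null tumours), and the median of all genes was 0.155. Under median-of-ratios scaling 1729 genes were higher and 1749 lower, the median of all genes was 0.016, and 6 of the 10 still passed. Gas6 averaged 166 ± 93.6 TPM in treated p53-null and 405 ± 143 TPM in treated p21-null mice (-1.41 ± 0.30, adjusted p = 0.00161). Pros1 averaged 53.6 ± 24.5 TPM in treated p53-null and 100.3 ± 19.6 TPM in treated p21-null mice (-0.98 ± 0.19, adjusted p = 0.000586). All 5 p53-null mice lay below the p21-null mean for both ligands, and the groups overlapped for both. C1qa (-0.76 ± 0.23, adjusted p = 0.0174), C1qb (-0.88 ± 0.25, adjusted p = 0.0121) and C1qc (-0.67 ± 0.23, adjusted p = 0.0293) were also lower in p53-null tumours, with overlapping groups. Their calls rested on m2769: without it the differences were -0.43 (adjusted p = 0.113), -0.49 (0.077) and -0.35 (0.185), and in the fit of only these mice none of the 3 passed (adjusted p of 0.0827, 0.0885 and 0.12). Those of C1qa (adjusted p = 0.0551) and C1qc (0.0884) also ended without treated p53-null m2688, and that of C1qc without treated p21-null m4533 (0.0527) or with tumours as separate samples (0.0742). Axl was higher by 0.54 ± 0.23 in p53-null tumours, not past the test (adjusted p = 0.0821), and by 0.83 without m2769 (adjusted p = 0.00676) or 0.63 without treated p21-null m4380 (0.0319). Megf10 was higher by 0.51 ± 0.19 (adjusted p = 0.0462), a call at the threshold that held in 14 of 34 fits with 1 mouse left out (adjusted p = 0.193 without m2551). That call also ended with no filter on low values (adjusted p = 0.0518) and with a pseudocount of 5 (0.131). Megf10 met the filter only through untreated p53-null mice, which are outside this comparison, so the call is a description. In the same comparison 6 of 21 macrophage markers were lower and 0 higher in p53-null tumours, among them Trem2, a lipid receptor of macrophages (-1.66 ± 0.25), and 5 of 9 fibroblast and 5 of 7 endothelial markers were higher. Their part in these differences was not tested.

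Set against the macrophage markers of the same mouse, the C1q rises were not past the test. In p21-null tumours C1qa, C1qb and C1qc differed by 0.19, 0.18 and 0.11 on this scale and in wild-type tumours by 0.27, 0.12 and 0.10 (adjusted p of at least 0.207). Gas6 alone of the 10 was higher on this scale, in wild-type tumours, by 0.97 ± 0.30 (adjusted p = 0.00634), where 0.375% of all genes were higher. In p21-null tumours none of the 10 was higher, where 0.757% of all genes were, and Gas6 differed by 0.34 ± 0.28 (adjusted p = 0.245). Mfge8 (-1.21 ± 0.30), Tyro3 (-1.05 ± 0.27), Megf10 (-1.09 ± 0.30), Mertk (-0.77 ± 0.26) and Axl (-0.58 ± 0.21) were lower relative to the markers in p21-null tumours, as were 89.7% of all genes. In wild-type tumours Megf10 was lower (-0.81 ± 0.32), as were 80.0% of all genes, so a fall on this scale says little about a gene. In p53-null tumours none of the 10 passed in either direction, where 0.0804% of all genes did, and Gas6 differed by -0.28 ± 0.34.

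**Figure D4:**
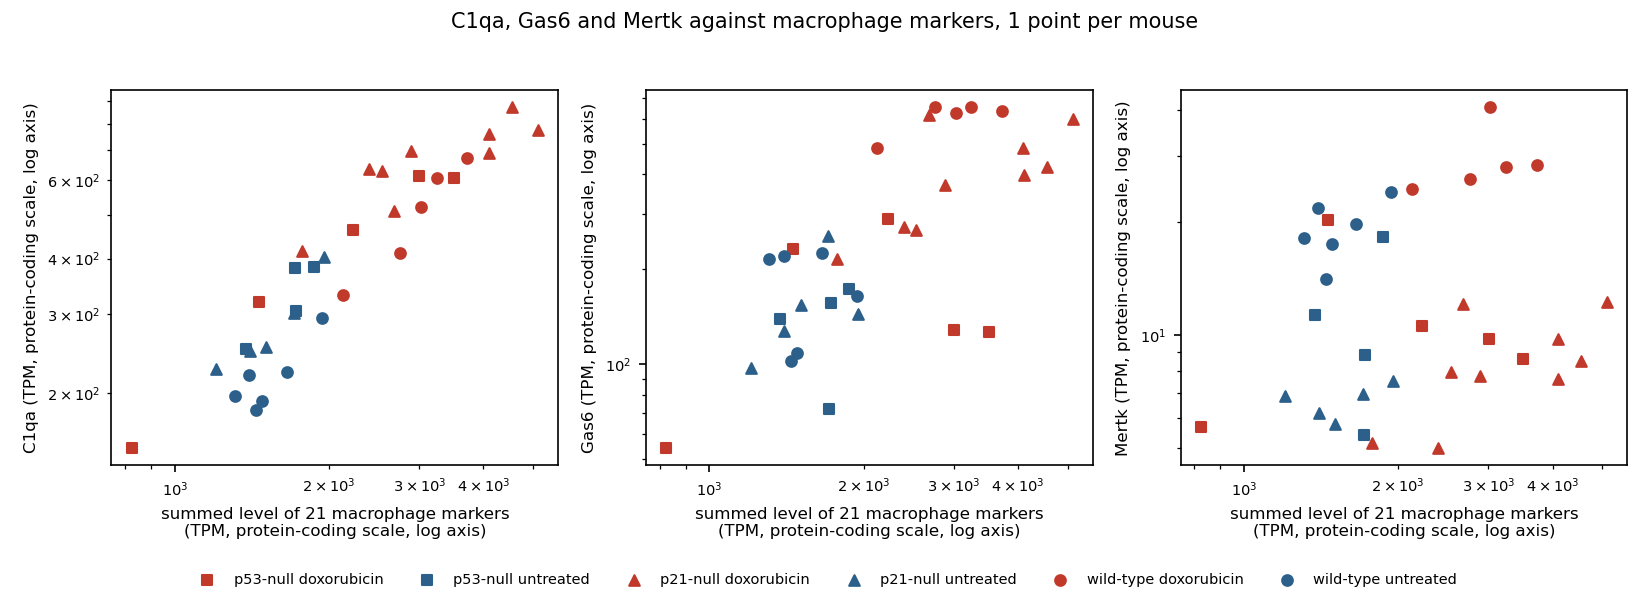
Levels of C1qa, Gas6 and Mertk (vertical log axes, TPM on the protein-coding scale) against the summed level of 21 macrophage markers (horizontal log axis, same unit) in each of 34 mice, with doxorubicin in red and untreated in blue, squares for p53-null, triangles for p21-null and circles for wild-type. C1qa follows the markers across all groups, from 150.3 TPM at a marker sum of 824.5 TPM upward, while treated p53-null mice lie at 54.1 to 289 TPM of Gas6 and treated p21-null mice at 215 to 616 TPM.

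Of 40 other efferocytosis genes tested 0 passed in p53-null tumours, 5 rose and 1 fell in p21-null tumours, and 5 rose in wild-type tumours, where 1.17%, 5.00% and 3.73% of all genes rose. Their median log2 differences were 0.122 in p53-null, 0.110 in p21-null and 0.292 in wild-type tumours, beside 0.052, -0.086 and 0.037 over all genes, and 27, 26 and 32 of the 40 lay above 0. Abca1, the cholesterol exporter that engulfing cells use to shed lipid, rose in p21-null (0.75 ± 0.22, adjusted p = 0.0244) and wild-type tumours (1.22 ± 0.24, adjusted p = 0.00114). Ppard, a nuclear lipid receptor, rose by 0.37 ± 0.11 in p21-null and 0.41 ± 0.12 in wild-type tumours. In wild-type tumours Nr1h3 (LXR alpha), which drives Abca1, rose by 0.80 ± 0.20 and Stab1, a phosphatidylserine receptor, by 0.73 ± 0.19. In p21-null tumours Cd300lf, a phosphatidylserine receptor of myeloid cells, rose by 1.495 ± 0.28, to 11.3 TPM treated against 2.90 TPM untreated, and Dock1, a Rac activator of the engulfment machinery, fell by 0.52 (-0.52 ± 0.16).

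The complement list held components and inhibitors of the classical pathway, C1q receptors, anaphylatoxin receptors and myeloid integrin chains of the complement receptors. Of its 18 genes tested 2 rose in p53-null, 8 in p21-null and 5 in wild-type tumours and none fell, where 1.17%, 5.00% and 3.73% of all genes rose. Their medians were 0.464, 0.830 and 0.792, beside 0.052, -0.086 and 0.037 over all genes. In p53-null tumours these were C2, the protease of the classical pathway's C3 convertase (1.37 ± 0.34, adjusted p = 0.0265), and Cd55, which dissolves that convertase (1.001 ± 0.22, adjusted p = 0.0106). Both also rose in p21-null tumours (1.22 ± 0.28 and 0.98 ± 0.18). C4b, cleaved by C1s once C1q is bound, averaged 165 TPM in treated and 57.8 TPM in untreated wild-type mice (1.52 ± 0.35, adjusted p = 0.00774). C3ar1, the C3a receptor of myeloid cells, rose by 1.11 ± 0.23 in p21-null and 0.97 ± 0.25 in wild-type tumours, and Itgax, a chain of complement receptor 4, by 0.98 ± 0.25 and 1.02 ± 0.27.

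Among genes that restrain phagocytes, 3 of 8 tested rose in p53-null, 4 in p21-null and 3 in wild-type tumours and none fell. Over all genes 1.17%, 5.00% and 3.73% rose in these genotypes. The median log2 differences of the 8 were 0.338, 0.668 and 0.372, beside 0.052, -0.086 and 0.037 over all genes. B2m, the light chain of MHC class I, rose in all 3 genotypes (0.98 ± 0.25, 1.41 ± 0.20 and 0.89 ± 0.22), as did Cd274, which encodes PD-L1 (1.26 ± 0.26, 1.29 ± 0.21 and 0.87 ± 0.23). Cd47, whose product signals through Sirpa to halt engulfment, rose in p53-null (0.78 ± 0.15, adjusted p = 0.00428) and p21-null tumours (0.73 ± 0.13, adjusted p = 0.000166). It averaged 62.8 TPM treated and 35.9 TPM untreated in p53-null mice. In wild-type tumours Sirpa rose by 0.60 ± 0.18 (adjusted p = 0.049). Of 14 other genes linked to TAM ligands or receptors, 0 passed in p53-null and wild-type tumours. In p21-null tumours 1 rose, where 5.00% of all genes did: Socs1, a cytokine signalling inhibitor (0.94 ± 0.19, adjusted p = 0.00151).

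Markers of other cells were counted in the same way. Of 7 neutrophil markers tested 0 rose in p53-null, 4 in p21-null and 1 in wild-type tumours, and of 10 lymphocyte markers 0, 3 and 0. All 7 neutrophil markers had a log2 difference above 0 in each genotype (medians 0.384, 0.889 and 0.979). Of the 10 lymphocyte markers 10, 9 and 5 did (medians 0.529, 0.698 and 0.023). The medians over all genes were 0.052, -0.086 and 0.037. No fibroblast, endothelial, luminal, basal, dendritic or muscle marker passed in any genotype. Of 6 adipocyte markers 0, 1 and 1 rose, and 4, 5 and 4 of 5 red cell genes fell. Beside these counts, 1.17%, 5.00% and 3.73% of all genes rose, and 68, 601 and 199 of 14928 fell.

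By deviations from the group mean over 34 mice, each of the 10 was set against all other genes tested. Among the genes most like the C1q chains were Pld4, Ly86, Vav1 and Tyrobp (Pearson r from 0.931 to 0.968). Gas6 was most like Npr2, a natriuretic peptide receptor (r = 0.862), and Tgfbr3, a TGF-beta coreceptor (r = 0.838), with Tnfsf12 also in its top 4 (r = 0.812). Its correlation was 0.722 with Axl, 0.716 with Mertk and 0.422 with C1qa. Pros1 had no close partner, its highest being Zfp949 (r = 0.711). Axl was most like Camk1 (r = 0.900), Tnfsf12 (0.890) and Cybb, the phagocyte oxidase chain (0.874), and its correlation with C1qa was 0.650. Mertk was most like Clmp (r = 0.867) and Tyro3 like Pex6 (r = 0.835), while Mfge8 was most like Ell (r = 0.825) and Megf10 like Heyl, a Notch target (r = 0.809). These are descriptions across mice that share depth and tissue makeup within a library, picked as the highest of all genes tested.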

How the data were processed

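The authors deposited 1 table per tumour of gene-level TPM, made with RSEM on mm10 per the submitters' processing notes; the aligner was not given in the sources used here. Identifiers were matched to GENCODE M21 (42462 of 43346), and TPM were rescaled to 21461 nuclear protein-coding genes. Tumours with the same number in a group were taken as 1 mouse. log2(TPM + 1) of genes at 1 or above in at least 4 mice (14928) was fitted for all 6 groups with limma 3.58.1 in R 4.3.3 (trended, robust moderation), with Benjamini-Hochberg adjustment over all genes tested at 0.05. Fold changes on this scale understate the change of low genes. A second fit subtracted the mean of 21 macrophage markers in each mouse. The fit was also run on simulated data in which genes varied independently. Its outcome is not given here and lends no support to the calls above.

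Named genes were the 10, Trp53 and Cdkn1a, up to 4 per gene list and comparison with the smallest adjusted p, and the 4 most correlated with each of the 10. The 10 genes and the lists (other efferocytosis, complement components, inhibitors and receptors, phagocyte restraint, TAM axis and 11 cell types) were chosen with earlier results of these data known. Alternatives were scaling, pseudocount, filter, tumours as samples, the groups fitted, moderation and leaving out each mouse.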

Additional observations from a re-analysis of the deposited data

Results flagged for a closer look

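In 6 of 60 groups of values, 1 mouse lay further from the others than a Dixon test at 95% allows, and chance gives about 1 in 20. C1qb stood at 231.6 TPM in untreated wild-type m998, above the other 5 mice (at most 181.8 TPM). Gas6 stood at 485.1 TPM in treated wild-type m978, below the other 4 (at least 626.9 TPM). Mfge8 stood at 1346 TPM in untreated p53-null m2493, above the other 3 (at most 492.6 TPM). Axl stood at 24.56 TPM in treated p53-null m2769, below the other 4 (at least 66.02 TPM), in the mouse with the lowest macrophage marker sum. Tyro3 stood at 48.67 TPM in treated p53-null m2688, above the other 4 (at most 26.9 TPM). Megf10 stood at 0.2675 TPM in treated p21-null m4380, above the other 8 (at most 0.1391 TPM).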

How the results depend on the processing

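Over 80 values (10 genes in 8 comparisons), 9 alternative settings and 34 left-out mice, none past the threshold changed sign, and a sign change between values that both missed it was not counted as a reversal. The number of the 10 genes called in wild-type tumours was 5, 2 with TPM as deposited and 7 in the fit of only its own groups (4 to 5 with a mouse left out). In p53-null tumours it was 1, and 0 with a pseudocount of 0.1, with 40 tumours as separate samples, with the mouse as a random block and in the fit of its own groups (0 to 1 with a mouse left out). In p21-null tumours it was 5 in every setting and with every mouse left out. For p53-null minus p21-null it was 1 untreated and 2 with median-of-ratios scaling (1 to 2 with a mouse left out), and 6 treated and 3 in the fit of only those groups (3 to 7). Response differences gave 0, and 0 to 2 (p53-null minus wild-type), 0 to 1 (p53-null minus p21-null) and 0 to 0 (p21-null minus wild-type) with a mouse left out.

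Counts over all genes moved more. With TPM as deposited, wild-type tumours gave 110 higher and 70 lower genes, against 557 and 199 on the protein-coding scale and 378 and 358 with median-of-ratios scaling. In the fit of only the p53-null mice 1 gene passed, against 242. Untreated p53-null minus p21-null gave 264, 491 with TPM as deposited (244 higher, 247 lower), 238 higher and 223 lower with median-of-ratios scaling and 67 in its own fit, and treated 3860 and 1587 in its own fit. Response differences gave 111 for p53-null minus wild-type (60 as deposited, 23 higher and 37 lower, and 41 and 77 with median-of-ratios scaling, against 27 and 84; 70 in its own fit), 12 for p21-null minus wild-type (65, 27, 0 and 46 as deposited, with median-of-ratios scaling and with pseudocounts of 0.1 and 5) and 103 for p53-null minus p21-null (162 with median-of-ratios scaling). Against the medians of all genes on the protein-coding scale, median-of-ratios scaling gave 0.016 against 0.155 for treated p53-null minus p21-null tumours, 0.030 against -0.121 for the response difference of p21-null minus wild-type and 0.002 against 0.114 for that of p53-null minus p21-null; treated p53-null minus p21-null gave 2317 higher and 1308 lower genes with TPM as deposited. With a mouse left out, p53-null tumours gave 108 to 353 genes (108 without m881, 129 without m2237, 137 without m2771, 146 without m2119), p21-null tumours 794 to 1684, against 1347 (794 without m4536, 842 without m4539), and wild-type tumours 476 to 857, against 756 (476 without m1198, 477 without m713, 486 without m1127, 497 without m1475). Untreated p53-null minus p21-null gave 126 to 451 (126 without m2119, 451 without m2493, and 154 to 166 without m4536, m4116, m4555 or m4539) and treated 2540 to 4685 (2540 without m2688). Response differences gave 86 to 131 for p53-null minus wild-type, 8 to 25 for p21-null minus wild-type (25 without m824, 19 without m2551) and 78 to 175 for p53-null minus p21-null (175 without m2551). No paired analysis was possible because groups share no replicate numbers. The spread between 4 to 9 mice a group limits what could be called, and the number of reads behind low levels such as those of Megf10 is unknown.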
